A study of Mus musculus with 18 samples.

Results

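Transcripts of 7 kinases were followed in mouse C2C12 myotubes, the atypical MAP kinases Mapk6 (encoding ERK3), Mapk4 (ERK4), Mapk15 (ERK7/8) and Nlk (Nemo-like kinase), and the MAPK-activated kinases Mapkapk5 (MK5), Mapkapk2 (MK2) and Mapkapk3 (MK3). They were chosen by name, by matching their symbols to the gene identifiers of the count table, and make up 7 of the 55414 genes listed there; all 7 were among the 21772 that entered the tests with 10 counts or more over all libraries. C2C12 is an established mouse myoblast line that fuses into multinucleated myotubes when serum is lowered. The confluent myoblasts of all groups received a pool of siRNAs at the start of differentiation, non-targeting (siNTC), against Erk3 (siErk3) or against Mk5 (siMk5), were differentiated for 6 days and then spent 16 h without serum, with BSA alone or with 0.5 mM palmitic acid bound to it (PA). The 6 groups were siNTC BSA, siErk3 BSA, siMk5 BSA, siNTC PA, siErk3 PA and siMk5 PA, with 3 libraries each (18 in all). The sources used here do not say whether the libraries of a group came from separate cultures, so every p-value measures the spread between these libraries, which may be technical. Silencing by siRNA pools lowers a transcript without removing it, and the cells were a single immortalised line.

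As background, conventional MAP kinases such as ERK1 and ERK2 are switched on by phosphorylation of a threonine and a tyrosine in their activation loop by dedicated MAP kinase kinases. ERK3 and ERK4 carry only a serine at this place, are phosphorylated there by p21-activated kinases, and bind and activate MK5, which is their best-known partner. ERK3 is a short-lived protein whose amount is set by its degradation, so the transcript need not follow the protein. NLK phosphorylates TCF/LEF transcription factors in the Wnt pathway, and ERK7/8 has been linked to autophagy and cilia. MK2 and MK3 are close relatives activated by p38 that phosphorylate the heat shock protein HSPB1 and the mRNA-binding protein tristetraprolin (Zfp36).

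Upstream sequences from a RefSeq promoter table are shown for 5 of these genes, with the start nearest to the Ensembl 105 gene end. Of these 5, 4 were higher with PA in at least 1 siRNA group (values below), and Mapkapk2 passed no test for PA. Each window holds the 250 bases upstream of the RefSeq start, in the direction of transcription. The bases come from the RefSeq table of build GRCm38.p6 and were found once each, letter for letter, in GRCm39, whose positions are given. All 5 lie on the minus strand. Capitals mark matches on either strand to TGACG (the half-site of the cAMP response element, CGTCA when read on the other strand) or to GGGCGG (a GC box, CCGCCC on the other strand).

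Mapk6 chr9:75317299-75317548: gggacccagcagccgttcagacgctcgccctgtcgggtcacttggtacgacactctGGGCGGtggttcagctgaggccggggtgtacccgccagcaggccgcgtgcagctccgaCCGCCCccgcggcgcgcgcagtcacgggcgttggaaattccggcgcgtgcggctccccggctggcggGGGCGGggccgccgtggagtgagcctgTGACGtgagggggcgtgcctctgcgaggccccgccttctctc
Mapkapk5 chr5:121683956-121684205: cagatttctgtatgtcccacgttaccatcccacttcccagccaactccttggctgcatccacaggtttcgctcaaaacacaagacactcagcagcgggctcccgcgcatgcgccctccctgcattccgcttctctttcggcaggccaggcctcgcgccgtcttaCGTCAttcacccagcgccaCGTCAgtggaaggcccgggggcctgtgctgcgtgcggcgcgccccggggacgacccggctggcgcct
Mapkapk3 chr9:107167077-107167326: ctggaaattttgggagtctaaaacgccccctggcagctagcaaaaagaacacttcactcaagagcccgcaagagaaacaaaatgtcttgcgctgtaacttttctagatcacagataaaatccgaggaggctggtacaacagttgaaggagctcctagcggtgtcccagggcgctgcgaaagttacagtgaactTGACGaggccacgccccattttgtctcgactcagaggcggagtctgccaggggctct
Nlk chr11:78588252-78588501: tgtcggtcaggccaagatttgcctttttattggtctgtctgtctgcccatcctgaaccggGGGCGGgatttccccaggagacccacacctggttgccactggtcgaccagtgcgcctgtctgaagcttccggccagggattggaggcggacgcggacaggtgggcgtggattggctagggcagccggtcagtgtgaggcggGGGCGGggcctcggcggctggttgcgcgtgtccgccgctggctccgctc
Mapkapk2 chr1:131025581-131025830: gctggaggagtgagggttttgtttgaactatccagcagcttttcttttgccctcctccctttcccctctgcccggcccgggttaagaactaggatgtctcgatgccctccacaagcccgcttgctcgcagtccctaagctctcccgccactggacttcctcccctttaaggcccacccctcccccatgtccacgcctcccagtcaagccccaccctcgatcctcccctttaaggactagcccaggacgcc

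TGACG was found in 3 of the 5 windows, 42 bases upstream of the start in Mapk6, 57 in Mapkapk3, and 86 and 67 in Mapkapk5. Of 32851 RefSeq windows of the same length, 17.8% held it. GGGCGG was found in 2 of the 5 windows, at 3 places in Mapk6 and at 2 in Nlk, against 32.7% of all windows. None of the 5 windows held the other motifs searched on both strands, which were CACGTG (an E-box, in 6.02% of all windows), TGANTCA (an AP-1 site, in 6.75%), TGATGNAA (the core of the amino acid response element, in 3.45%) and AGGTCA (a nuclear receptor half-site, in 14.02%). The Mapkapk2 window held none of the 6 motifs. Windows of Mapk4 and Mapk15 were not searched, so the counts out of 5 leave out the closest relative of Mapk6. The motifs were chosen after the values were seen, and a match is a description of these letters only. The last 13 bases of the Mapkapk5 window lie inside the Ensembl gene, and Mapk6 and Mapkapk3 each have a second RefSeq start, 646 and 481 bases inside the Ensembl gene end, whose windows are not shown. Neither second window held TGACG, so those matches in Mapk6 and Mapkapk3 depend on the start chosen. The second Mapk6 window held GGGCGG at 2 places, and the second Mapkapk3 window held CACGTG, 167 bases upstream of that start.

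The genes differ widely in how well they were measured. The libraries held 13041979 to 28496727 counts assigned to genes (median 22417470.5). Summed over the 18 libraries, Mapkapk2 had 61738 counts, Mapk6 58273, Nlk 7832, Mapkapk5 974, Mapk4 779, Mapkapk3 335 and Mapk15 197. The lowest count in any library was 1340 for Mapk6 and 4 for both Mapk15 and Mapkapk3, so the last 2 carry the largest counting error. Values below are CPM, the count of a gene relative to the library total after TMM scaling, which corrects for library size and composition. Mapk6 (ENSMUSG00000042688, GRCm39 chr9:75276344-75317287), Nlk (ENSMUSG00000017376, chr11:78457994-78588199), Mapkapk2 (ENSMUSG00000016528, chr1:130981437-131025563) and Mapkapk3 (ENSMUSG00000032577, chr9:107132126-107167076), all on the minus strand, and Mapk15 (ENSMUSG00000063704, chr15:75865618-75871003, plus strand) share no exonic base with another gene in the annotation. Mapk4 (ENSMUSG00000024558, chromosome 18, minus strand) shares 4.8% of its 5400 exonic bases with a gene on the other strand that had 2 counts in all. Mapkapk5 (ENSMUSG00000029454, chr5:121663101-121683968, minus strand) shares 1801 of its 3195 exonic bases (56.4%) with the annotated gene Gm42878 on the same strand. Reads within shared exons cannot be assigned to either gene in this kind of counting, so Mapkapk5 rests on about 1394 bases and its level is understated. The pseudogene Nlk-ps1 had 0 counts in every library.

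The labelled cell type was seen in its markers. All 7 myotube markers (among them Myog, Myh3 and Acta1) were detected, with a summed level of 9950 to 10200 CPM of the unscaled library total in siNTC BSA, 10900 to 11700 in siErk3 BSA, 8950 to 9690 in siMk5 BSA, 8540 to 8600 in siNTC PA, 9230 to 9950 in siErk3 PA and 9030 to 9290 in siMk5 PA. The macrophage list did not exceed 1.78 in any library, with Adgre1 at 0, the endothelial list 1.12, and the adipocyte list 0.0446, with Cidec and Plin1 at 0. The fibroblast list, at 437 to 1868 over all libraries, and the myoblast list, at 20.5 to 53.4, were detected as well and are given by group below. The 18S ribosomal gene Rn18s-rs5 took 8.39 to 12.87% of the counts in siMk5 BSA and 1.5 to 7.17% in the other groups.

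**Figure D1:**
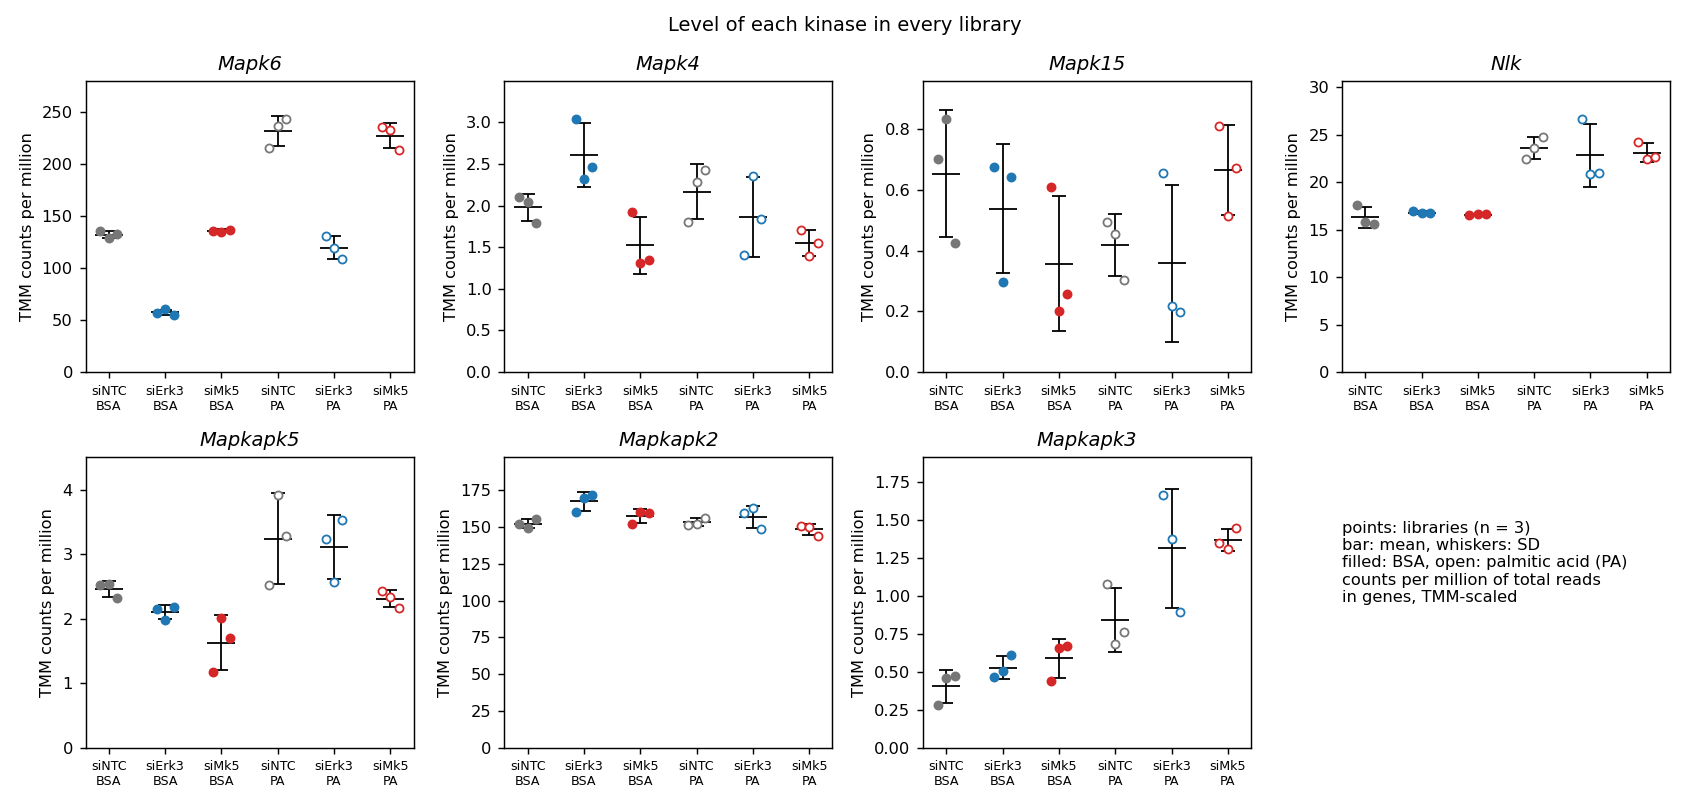
CPM (vertical axes, each from 0) of the 7 kinases in the 6 groups (horizontal axes), with 1 point per library, the group mean as a bar and the SD as whiskers (n = 3). Mapk6 lies between 55.2 and 60.3 in siErk3 BSA and between 215 and 244 in siNTC PA, and Mapkapk2 stays between 144 and 172 in all 18 libraries.

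Levels of different genes were compared as CPM per kilobase of exon. In siNTC BSA the order was Mapkapk2 at 50.1 ± 0.982 CPM per kilobase (SD, n = 3), Mapk6 at 19.8 ± 0.475, Nlk at 2.99 ± 0.201, Mapkapk5 at 0.771 ± 0.0395, Mapk4 at 0.367 ± 0.0303, Mapk15 at 0.255 ± 0.0813 and Mapkapk3 at 0.0729 ± 0.0193. The libraries of neighbouring genes did not overlap in this group, although Mapk4 (lowest library 0.333) and Mapk15 (highest 0.325) lay next to each other. In siNTC PA the first 5 kept this order, whereas Mapk15 (0.163 ± 0.0396) and Mapkapk3 (0.152 ± 0.0380) differed by less than their spread. Over its 1394 unshared bases alone, Mapkapk5 stood at 1.77 ± 0.0906 CPM per kilobase in siNTC BSA, which leaves its place in the order as it was.

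Mapk6 was thus the main transcript of the ERK3/ERK4 pair. Its level per kilobase was 54.0 times that of Mapk4 in siNTC BSA and 86.5 times in siNTC PA. After siErk3, the ratio was 17.8 in BSA and 52.0 in PA. Among the MAPK-activated kinases, Mapkapk2 stood 687 times above Mapkapk3 and 65.0 times above Mapkapk5 per kilobase in siNTC BSA, and 332 and 49.7 times in siNTC PA. The Mapk6 transcript exceeded that of its partner Mapkapk5 by a factor of 25.7 per kilobase in siNTC BSA and 13.04 in siErk3 BSA. These ratios to Mapkapk5 take all of its exonic bases. Per kilobase of its 1394 unshared bases, Mapkapk2 stood 28.3 times above Mapkapk5 in siNTC BSA and 21.7 times in siNTC PA. Mapk6 stood 11.2 times above it in siNTC BSA and 5.69 times in siErk3 BSA. A read pair reaching from unshared into shared exons may be counted too, so the span counted may be longer and these ratios are approximate.

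**Figure D2:**
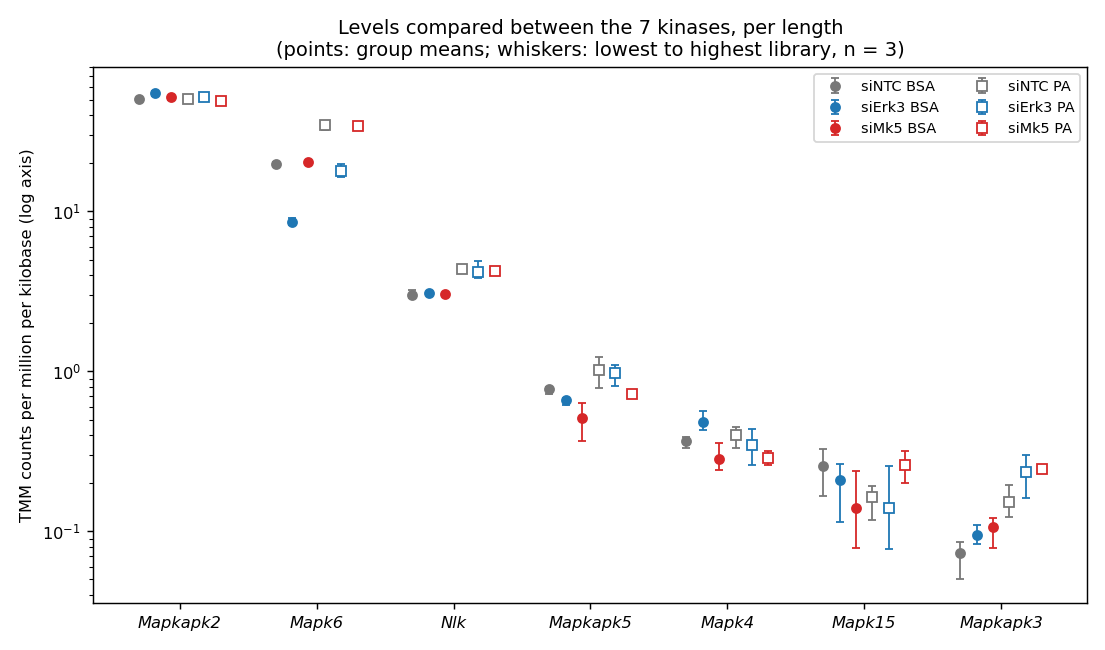
CPM per kilobase of exon (log axis) for the 7 kinases in the order of their siNTC BSA level (horizontal axis), as group means with whiskers from the lowest to the highest library (n = 3). Mapkapk2 (50.1 in siNTC BSA) and Mapk6 (19.8) lie above Nlk (2.99), and the other 4 lie below or near 1.

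The first question was how far each siRNA lowered its own target in either medium. siErk3 lowered Mapk6 in both media, while the decrease of Mapkapk5 by siMk5 did not pass the test. Mapk6 stood at 135, 129 and 133 CPM in the siNTC BSA libraries and at 56.6, 60.3 and 55.2 in siErk3 BSA. In PA it was at 215, 236 and 244 CPM in siNTC and at 131, 119 and 109 in siErk3. The siErk3 and siNTC libraries did not overlap in either medium. In the edgeR quasi-likelihood fit over all genes, the log2 fold change was -1.21 ± 0.06 (SE, FDR = 1.76e-14) in BSA and -0.95 ± 0.06 (FDR = 1.2e-12) in PA, that is 2.31-fold and 1.93-fold lower. The remaining level was 43.4% of siNTC in BSA and 51.7% in PA, and the difference in level was 74.9 CPM in BSA and 112 CPM in PA. A gene was called when its Benjamini-Hochberg FDR was below 0.05 and its fold change above 1.3. By this rule Mapk6 was the single called kinase of the 7 under siErk3 in either medium, while 0.785% of all genes tested were called in BSA and 0.556% in PA. Averaged over both media, Mapk6 fell by 1.08 on the log2 scale (SE 0.04, FDR = 1.21e-17), where 0.919% of all genes were called.

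Mapkapk5 had few counts, 27 to 40 in the siMk5 BSA libraries and 36 to 61 in siNTC BSA. It stood at 2.53, 2.54 and 2.32 CPM in siNTC BSA and at 1.18, 2.01 and 1.70 in siMk5 BSA. In PA the values were 2.52, 3.92 and 3.28 CPM in siNTC and 2.43, 2.33 and 2.17 in siMk5. All siMk5 libraries were below all siNTC libraries of the same medium, in PA by a margin of 2.43 against 2.52. The log2 fold change was -0.61 ± 0.21 (95% interval -1.03 to -0.18, edgeR FDR = 0.47) in BSA and -0.48 ± 0.18 (-0.85 to -0.12, FDR = 0.468) in PA, and neither passed the test. The mean was 66.2% of siNTC in BSA and 71.2% in PA. Averaged over both media the log2 fold change was -0.55 ± 0.14 (FDR = 0.0775, 0.211% of all genes called), which did not pass over all genes either. Before adjustment over all genes, the edgeR p-values were 0.00639 in BSA, 0.0117 in PA and 0.000417 over both media. By the paper's account, Western blots showed silencing of both kinases as protein, which these counts do not measure. An exact two-sided permutation test of the library labels within media, one of 4 such tests, gave p = 0.005 for Mapkapk5 under siMk5 (0.005 after adjustment over the 4) and p = 0.005 for Mapk6 under siErk3, the smallest value the 400 arrangements allow. The overlapping gene Gm42878 was at 2.41 ± 0.721 CPM in siNTC BSA and 1.49 ± 0.340 in siMk5 BSA (FDR = 0.639), and at 1.71 ± 0.223 and 1.77 ± 0.412 in PA (FDR = 1).

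None of the 7 kinases was called under siMk5 in BSA (0 by edgeR, 1 at an unadjusted p below 0.05, 0 by DESeq2), where 0.0643% of all genes were called, or in PA (0 by edgeR, 3 at an unadjusted p below 0.05, 0 by DESeq2), where 0.547% were. Of all genes, 6.89% in BSA and 6.78% in PA had an unadjusted p below 0.05. Under siErk3, 3 of the 7 in BSA and 2 in PA did, Mapk6 among them, against 10.6% and 8.27% of all genes.

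The same libraries show whether a relative rose when ERK3 or MK5 was silenced. No relative passed the test in any of the 4 comparisons. The share of all genes whose libraries separated from siNTC was not counted, so groups without overlap, above and below, are given as description only. Mapk4, the closest relative of Mapk6, stood at 2.11, 2.04 and 1.80 CPM in siNTC BSA and at 3.04, 2.32 and 2.47 in siErk3 BSA, so that the groups did not overlap. The log2 fold change of 0.40 ± 0.19 (95% interval 0.01 to 0.80) had an edgeR FDR of 0.461. In PA the siErk3 libraries at 1.40, 2.35 and 1.84 CPM overlapped with siNTC at 1.80, 2.28 and 2.43, and the log2 fold change was -0.19 ± 0.20 (FDR = 0.879). The Mapk4 means of 1.98 and 2.61 CPM in BSA stand beside the difference of 74.9 CPM in Mapk6. Under siMk5, Mapk4 was at 1.92, 1.31 and 1.34 CPM in BSA (log2 fold change -0.36 ± 0.22, FDR = 0.783) and at 1.71, 1.40 and 1.55 in PA (-0.48 ± 0.21, FDR = 0.673). The PA libraries lay below siNTC, whereas those in BSA overlapped.

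Nlk under both siRNAs and Mapk6 under siMk5 had log2 fold changes close to 0. Those of Nlk were 0.05 ± 0.08 and -0.05 ± 0.08 under siErk3 and of 0.04 ± 0.08 and -0.03 ± 0.08 under siMk5 (BSA and PA, FDR from 0.895 to 0.988), with 95% intervals between -0.20 and 0.22. Mapk6 under siMk5 was at 136, 135 and 137 CPM in BSA and at 235, 233 and 214 in PA, with log2 fold changes of 0.04 ± 0.06 (-0.08 to 0.16) and -0.03 ± 0.06 (-0.14 to 0.09). Mapkapk5 under siErk3 was at 2.15, 1.98 and 2.18 CPM in BSA, below the siNTC libraries, with a log2 fold change of -0.22 ± 0.19 (FDR = 0.75), and at 3.24, 2.57 and 3.52 in PA, where the groups overlapped (-0.07 ± 0.17, FDR = 0.959).

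Mapkapk2 stood at 160, 170 and 172 CPM in siErk3 BSA and at 152, 149 and 155 in siNTC BSA. The groups did not overlap, but the log2 fold change was only 0.14 ± 0.04 (95% interval 0.05 to 0.23, FDR = 0.185). Its values in the other 3 silencing comparisons were between -0.05 and 0.05. The siMk5 PA libraries of Mapkapk2 lay just below those of siNTC PA (highest 150.78 against lowest 151.44 CPM). Mapkapk3 had higher means in all 4 silencing comparisons, with log2 fold changes of 0.33 ± 0.36 and 0.65 ± 0.26 under siErk3 and 0.46 ± 0.37 and 0.69 ± 0.27 under siMk5 (BSA and PA, FDR from 0.442 to 0.845), none of which passed. The siNTC libraries are shared by both siRNAs in a medium, so these are not independent. In siMk5 PA its libraries at 1.35, 1.304 and 1.44 CPM lay above siNTC PA at 1.08, 0.684 and 0.758. Mapk15 had 4 to 20 counts per library and its 95% intervals reached from -1.77 to 1.55 on the log2 scale, and each of the 4 intervals included a 2-fold change in 1 direction, so that smaller differences were not detectable at this depth. Its siMk5 PA libraries, at 0.809, 0.512 and 0.671 CPM, lay above siNTC PA at 0.495, 0.456 and 0.303 (edgeR FDR = 0.887).

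**Figure D3:**
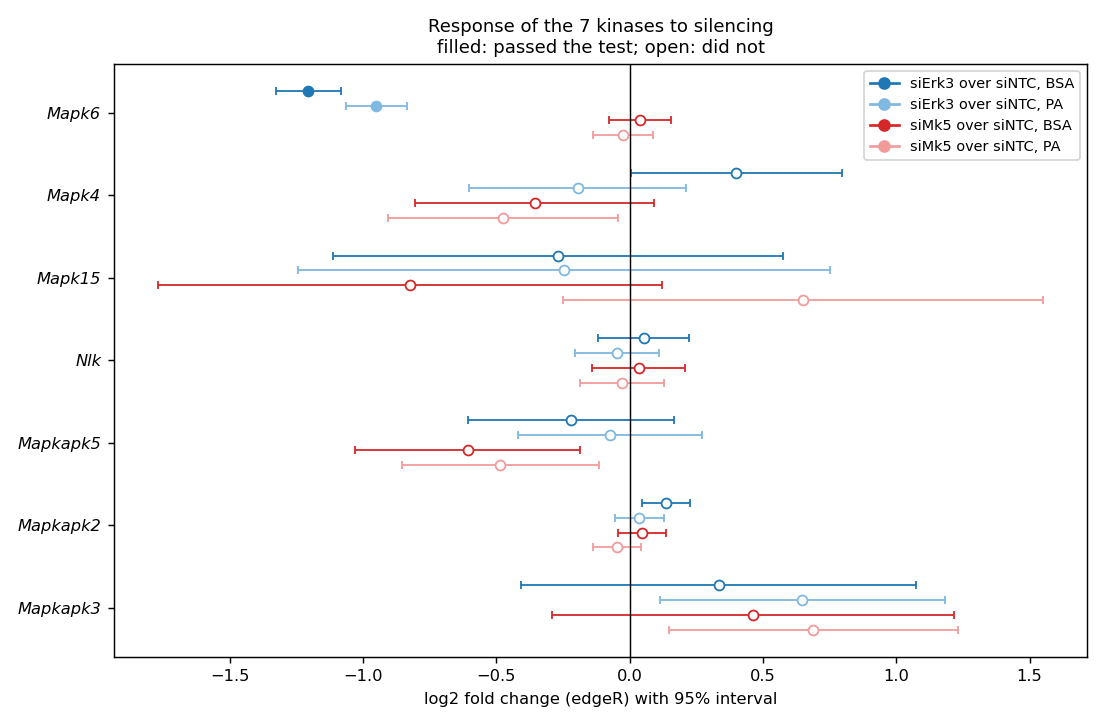
Log2 fold change (horizontal axis, edgeR, with the 95% interval) of the 7 kinases for siErk3 and siMk5 over siNTC in BSA and in PA; filled points passed the test. Only Mapk6 under siErk3 is filled (-1.21 and -0.95), Mapkapk5 lies below 0 under siMk5, and the intervals of Mapk15 are the widest.

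The next question was how these kinases responded to PA. In siNTC, Mapk6, Nlk and Mapkapk3 rose, in a comparison where 30.6% of all genes were called, 15.5% higher and 15.1% lower. A count of 3 higher of 7 is thus read against a background of 15.5%. At an unadjusted p below 0.05, the share of all genes with PA was 50% in siNTC, 51.9% in siErk3 and 49.1% in siMk5. The share whose PA and BSA libraries separated was not counted, so PA groups without overlap are given as description only. In siErk3, Mapk6, Nlk, Mapkapk3 and Mapkapk5 were called higher and Mapk4 lower, with 32.1% of all genes called, 15.8% higher and 16.3% lower. In siMk5 the same 4 were called higher and none lower, with 29.7% called, 15.1% higher and 14.6% lower. Genes listed as markers of other cell types moved with PA too, among them the fibroblast markers Pdgfra, Col1a1 and Dcn, all 3 of which were detected. Their summed level was 1580 to 1700 CPM of the unscaled library total in siNTC BSA, 1780 to 1870 in siErk3 BSA and 1380 to 1600 in siMk5 BSA, against 563 to 763, 502 to 699 and 437 to 614 in PA. Col1a1 made up most of this sum, with a median of 1010 CPM over the libraries against 40.6 for Dcn and 16.9 for Pdgfra. The myoblast markers Pax7 and Myf5 summed to 45.6 to 53.4 in the BSA libraries and 20.5 to 30.5 in PA. The culture was a single line, and whether these markers stood for separate cell types was not tested. The part of these genes in the PA responses was not tested either, and fewer cells of a type cannot be told apart from less RNA per cell.

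Mapk6 had the firmest response. With the values given above for siNTC and siErk3, and 136, 135 and 137 CPM in siMk5 BSA against 235, 233 and 214 in siMk5 PA, every PA library lay above every BSA library of its siRNA. The log2 fold change was 0.81 ± 0.06 in siNTC (FDR = 2.1e-13), 1.06 ± 0.06 in siErk3 (FDR = 9.41e-16) and 0.74 ± 0.06 in siMk5 (FDR = 1.35e-12), that is 1.75-fold, 2.09-fold and 1.67-fold higher. An exact permutation test within siRNAs gave p = 0.00025, the smallest that 8000 arrangements allow (0.001 after adjustment over the 4 tests). Mapk6 therefore rose from the lowered level in siErk3 as well, to 120 ± 11.3 CPM in siErk3 PA, close to the 132 ± 3.17 CPM of siNTC BSA. The libraries of these 2 groups overlapped, and the log2 fold change between them was -0.14 ± 0.06 (edgeR FDR = 0.0417), which is under the fold limit of 1.3, in a comparison where 32.8% of all genes were called and 2 of the 7 kinases, Mapkapk3 and Nlk, were called higher. The PA response of Mapk6 in siErk3 exceeded that in siNTC by 0.25 ± 0.08 on the log2 scale (95% interval 0.09 to 0.42). In the test of this interaction over all genes the FDR was 0.524, and 0.0367% of all genes were called. For siMk5 the difference was -0.07 ± 0.08 (FDR = 0.886, 0.211% of all genes called).

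Mapkapk5, the target of siMk5, was at 2.53, 2.54 and 2.32 CPM in siNTC BSA and at 2.52, 3.92 and 3.28 in siNTC PA, and 1 PA library fell within the BSA range. In siErk3 the PA libraries at 3.24, 2.57 and 3.52 CPM were all above those in BSA at 2.15, 1.98 and 2.18, and in siMk5 those at 2.43, 2.33 and 2.17 were all above 1.18, 2.01 and 1.70. The log2 fold changes were 0.40 ± 0.18 in siNTC (FDR = 0.0765, not called), 0.54 ± 0.18 in siErk3 (FDR = 0.0112) and 0.52 ± 0.21 in siMk5 (FDR = 0.0412). Over the 3 siRNAs, the exact permutation test gave p = 0.00075 (0.0015 adjusted over the 4 tests), with 2 of 3 siRNAs fully separated. The call in siErk3 was lost without PA library 3 (0.44, FDR = 0.0669), and that in siNTC was made without PA library 1 (0.55, FDR = 0.0162). In siMk5 the call was lost without BSA library 1 (0.31, FDR = 0.273), BSA library 3 (0.56, FDR = 0.0589), PA library 1 (0.47, FDR = 0.12) or PA library 2 (0.51, FDR = 0.0845), by DESeq2 (0.50, FDR = 0.0786), and when only the 2 groups were fitted (0.50, FDR = 0.0572). With PA, siMk5 cells held 2.31 ± 0.131 CPM of Mapkapk5, against 2.46 ± 0.126 in siNTC BSA. The difference of -0.09 ± 0.19 on the log2 scale had an edgeR FDR of 0.759 (95% interval -0.48 to 0.31), with 29.6% of all genes and 3 of the 7 kinases (Mapk6, Nlk and Mapkapk3, all higher) called in that comparison. The interaction of siMk5 and PA for Mapkapk5 was 0.12 ± 0.28 (FDR = 0.958).

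Nlk was higher with PA in all 3 siRNA groups, and no PA library overlapped with BSA. It stood at 17.6, 15.8 and 15.6 CPM in siNTC BSA and at 22.4, 23.6 and 24.8 in siNTC PA. The siErk3 libraries were at 16.9, 16.7 and 16.7 CPM in BSA and at 26.7, 20.9 and 20.9 in PA, and the siMk5 libraries at 16.5, 16.7 and 16.6 in BSA and at 24.3, 22.4 and 22.6 in PA. The log2 fold changes were 0.54 ± 0.08 (FDR = 1.48e-06), 0.44 ± 0.08 (FDR = 1.67e-05) and 0.48 ± 0.08 (FDR = 9.29e-06) in siNTC, siErk3 and siMk5. Without PA library 1 of siErk3, the value there was 0.30 (FDR = 0.000938), and without TMM scaling it was 0.34 (FDR = 0.00103), both below the fold limit.

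Mapkapk3 had the largest fold change with PA of the 7 in each siRNA group, on few counts. The siNTC libraries held 4, 11 and 10 counts in BSA (0.281, 0.458 and 0.473 CPM) and 24, 15 and 15 in PA (1.08, 0.684 and 0.758 CPM). In siErk3 it was at 0.465, 0.506 and 0.608 CPM in BSA and 1.66, 1.38 and 0.893 in PA, and in siMk5 at 0.436, 0.654 and 0.671 in BSA and 1.35, 1.304 and 1.44 in PA. The groups did not overlap for any siRNA. The log2 fold changes were 1.00 ± 0.34 (FDR = 0.0165), 1.31 ± 0.28 (FDR = 0.000178) and 1.22 ± 0.29 (FDR = 0.00068). In siNTC the call was lost without BSA library 1 (0.83, FDR = 0.0658) or PA library 1 (0.77, FDR = 0.112).

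Its close relative Mapkapk2 did not pass in any siRNA group, with log2 fold changes of 0.01 ± 0.05 in siNTC (95% interval -0.08 to 0.10), -0.09 ± 0.04 in siErk3 (-0.181 to -0.001) and -0.08 ± 0.05 in siMk5 (-0.17 to 0.01). These intervals leave out changes of the size seen in Mapk6 and Nlk. The siMk5 PA libraries at 151, 150 and 144 CPM lay below those in BSA at 152, 160 and 160, and the libraries of the other siRNAs overlapped.

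Mapk4 was called lower with PA in siErk3, from 3.04, 2.32 and 2.47 CPM to 1.40, 2.35 and 1.84, with a log2 fold change of -0.46 ± 0.19 (FDR = 0.0427). The groups overlapped, and the call was lost without BSA library 1 (-0.35, FDR = 0.183), BSA library 3 (-0.51, FDR = 0.0535), PA library 1 (-0.31, FDR = 0.213) or PA library 3 (-0.46, FDR = 0.0736). It was also lost by DESeq2 (-0.47, FDR = 0.0957), with no filter on low counts (-0.45, FDR = 0.0544), when only the 2 groups were fitted (-0.46, FDR = 0.0769), and without Rn18s-rs5 (-0.46, FDR = 0.0508). In siNTC and siMk5 its values were 0.13 ± 0.20 and 0.01 ± 0.23, and the interaction with siErk3 of -0.59 ± 0.28 had an FDR of 0.789. Mapk15 was at 0.702, 0.833 and 0.426 CPM in siNTC BSA and 0.495, 0.456 and 0.303 in siNTC PA (log2 fold change -0.63 ± 0.45, FDR = 0.277), and its value was 0.84 ± 0.46 in siMk5 (FDR = 0.141). The interaction with siMk5, 1.48 ± 0.64, had an FDR of 0.63. No kinase of the 7 passed an interaction test (0 by edgeR and 0 by DESeq2 for either siRNA, with 2 at an unadjusted p below 0.05 for siErk3 and 1 for siMk5). Of all genes, 6.11% for siErk3 and 7.43% for siMk5 had an unadjusted p below 0.05.

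**Figure D4:**
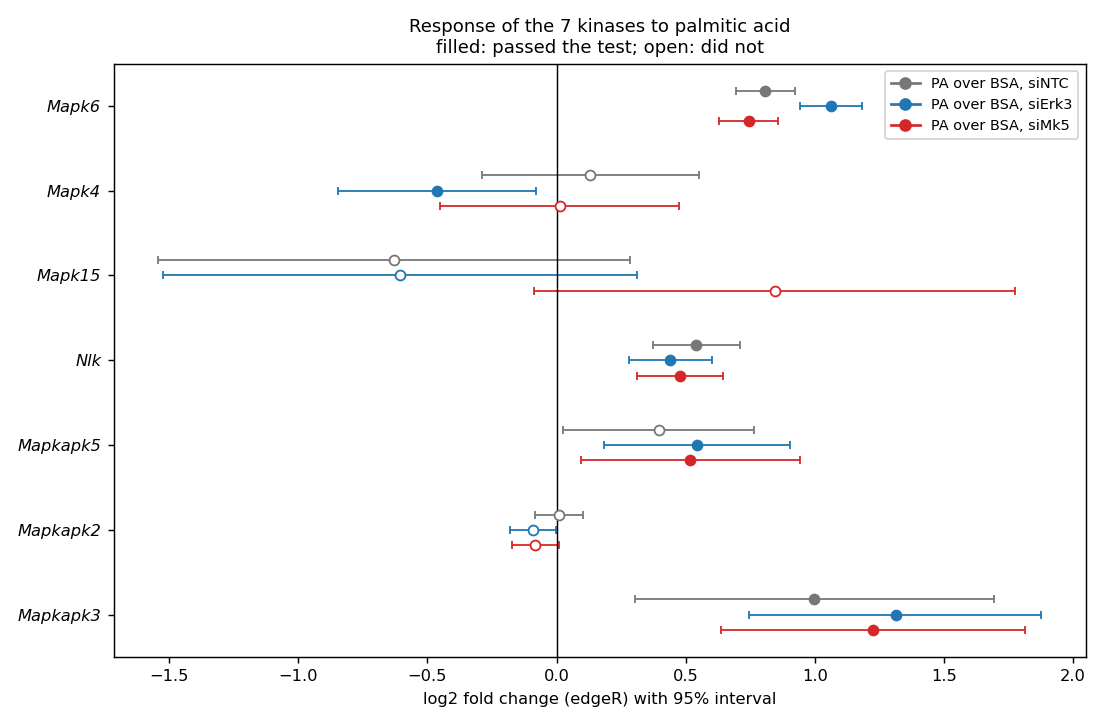
Log2 fold change (horizontal axis, edgeR, with the 95% interval) of the 7 kinases for PA over BSA in siNTC, siErk3 and siMk5; filled points passed the test. Mapk6 (0.74 to 1.06), Nlk (0.44 to 0.54) and Mapkapk3 (1.00 to 1.31) are filled for all 3 siRNAs, and Mapkapk2 lies within 0.1 of 0.

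The pattern of Mapk6 over the 18 libraries was compared with that of 11775 genes whose mean CPM had a log2 of at least 1. The measure was the mean absolute difference between log2(CPM + 0.5) values centred on each gene's mean. The added 0.5 narrows differences in genes of low CPM. Mapk6 itself deviated from its mean by 0.498 on average. The most similar genes were Cxcr6, encoding a chemokine receptor (0.287), Serping1, encoding the C1 inhibitor of the complement cascade (0.309), and Cxcl5, encoding a neutrophil-attracting chemokine (0.322). Cxcr6 stood at 5.28 ± 0.0737 CPM in siNTC BSA, 2.67 ± 0.421 in siErk3 BSA, 7.11 ± 0.364 in siNTC PA and 3.94 ± 0.686 in siErk3 PA. Serping1 stood at 4.48 ± 0.418, 3.07 ± 0.500, 6.54 ± 0.681 and 5.09 ± 0.493 CPM in the same groups, and Cxcl5 at 2.43 ± 0.346, 1.77 ± 0.450, 4.94 ± 0.744 and 2.98 ± 0.121. In siMk5, where Mapk6 stood at 136 ± 1.27 CPM in BSA and 228 ± 11.7 in PA, the values of these genes departed from the pattern of Mapk6 in places. Cxcr6 was at 3.48 ± 0.879 CPM in siMk5 BSA, below siNTC BSA, and at 6.31 ± 0.482 in siMk5 PA. Cxcl5 was at 3.67 ± 1.26 CPM in siMk5 BSA and 3.81 ± 0.247 in siMk5 PA, which differ by less than their spread, and Serping1 at 4.23 ± 0.629 and 6.74 ± 0.783. No test was made of this likeness.

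The 5 lists of pathway genes, 54 in all, set these kinases among their regulators, substrates and relatives. Rps6ka6 was under the count limit and 53 were tested. By the FDR and the fold limit together, none of the 53 was called under siErk3 or siMk5 in either medium, or in either interaction. By edgeR the count was 0 in each, with 10 and 5 at an unadjusted p below 0.05 under siErk3 in BSA and PA, 5 and 6 under siMk5, and 6 in each interaction; by DESeq2 it was 0 in each. Of all genes, 0.785% and 0.556% were called under siErk3 in BSA and PA, 0.0643% and 0.547% under siMk5, and 0.0367% and 0.211% in the interactions of siErk3 and siMk5, so that a list of 53 would hold fewer than 1 called gene at any of these shares. The shares of all genes at an unadjusted p below 0.05 were, in the same order, 10.6%, 8.27%, 6.89%, 6.78%, 6.11% and 7.43%. With PA, 15 of the 53 were higher and 12 lower in siNTC, 11 higher and 15 lower in siErk3, and 15 higher and 12 lower in siMk5. The background was given above, at 15.5% higher and 15.1% lower in siNTC, and includes weakly counted genes.

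Of the 12 regulators and partners of ERK3 and ERK4, 3 were higher and 5 lower with PA in siNTC (median log2 fold change -0.16, against -0.03 over all genes). Dusp2, a nuclear MAP kinase phosphatase that binds ERK3 and ERK4, rose by 1.29 ± 0.17 on the log2 scale (FDR = 1.53e-07), and Ncoa3, a nuclear receptor coactivator and ERK3 substrate, by 0.60 ± 0.07 (FDR = 4.1e-09). Ccnd3 (cyclin D3) fell by 0.64 (SE 0.05, FDR = 2.62e-13), and Pak3, one of the p21-activated kinases, fell by 0.63 (SE 0.07, FDR = 2.33e-09). Both directions were the same in siErk3 and siMk5, where Dusp2 changed by 1.44 and 1.38, Ncoa3 by 0.65 and 0.64, Ccnd3 by -0.60 and -0.56, and Pak3 by -0.66 and -0.55.

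Of the 15 substrates of MK2, MK3 and MK5, 8 were higher and 3 lower with PA in siNTC (median 0.41). Dnajb1, a heat shock co-chaperone that MK5 phosphorylates, rose by 1.00 ± 0.06 (FDR = 2.29e-15), Zfp36 by 0.85 ± 0.10 (FDR = 7.17e-09) and Hspb1 by 0.71 ± 0.06 (FDR = 2.38e-11). Foxo1, a forkhead transcription factor, fell by 0.92 (SE 0.07, FDR = 3.12e-12), and Zfp36l1, a relative of Zfp36, fell by 0.81 (SE 0.05, FDR = 2.45e-15). Heat shock genes and mRNA-binding proteins stand in this list because the kinases phosphorylate their products, and their transcript levels do not measure kinase activity.

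Of the 9 genes of the NLK pathway, 1 was higher and 2 were lower in siNTC (median 0.01). Tcf7l1 and Tcf7l2, TCF transcription factors of the Wnt pathway, fell by 1.06 (SE 0.08, FDR = 2.08e-12) and 1.11 (SE 0.09, FDR = 1.47e-11), and Tab2, an adaptor of the kinase TAK1 that acts upstream of NLK, rose by 0.42 ± 0.05 (FDR = 3.08e-09). Myb, a transcription factor that NLK phosphorylates, was called lower in siErk3 (-1.47 ± 0.36, FDR = 0.000911) and had -0.80 ± 0.34 in siNTC (FDR = 0.0614) and -0.54 ± 0.34 in siMk5 (FDR = 0.241). Its group means were low, from 0.224 CPM in siErk3 PA to 0.659 in siNTC BSA, and its interactions passed no test (FDR = 0.881 for siErk3 and 0.95 for siMk5). Under siErk3 in PA, 1 gene of this list was lower at an FDR below 0.05 without reaching the fold limit. By the FDR alone, 186 of all genes passed there. Map3k7, which encodes TAK1, stood at 102 ± 3.25 CPM in siErk3 PA and 123 ± 5.34 in siNTC PA. In BSA it was at 110 ± 2.87 in siErk3 and 122 ± 5.30 in siNTC.

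Of the 10 conventional MAP kinases, 1 was higher and 1 was lower in siNTC (median 0.17). Mapk3 (ERK1) fell by 0.60 (SE 0.06, FDR = 8.29e-10) and Mapk7 (ERK5) rose by 0.43 ± 0.07 (FDR = 2.57e-06), and in siMk5 Mapk12 (p38 gamma) was called as well (0.44 ± 0.07, FDR = 1.08e-06). Mapk12 stood at 32.6 ± 1.74 CPM in siMk5 PA and 31.8 ± 2.03 in siNTC PA, but at 23.96 ± 1.36 in siMk5 BSA and 25.4 ± 0.457 in siErk3 BSA against 30.2 ± 1.33 in siNTC BSA. Its differences in BSA had an FDR below 0.05 without reaching the fold limit (-0.34 ± 0.07, FDR = 0.0247 for siMk5 and -0.26 ± 0.06, FDR = 0.0398 for siErk3), and the interaction with siMk5 was 0.37 ± 0.09 (FDR = 0.0984). Of the 7 tested genes among the other MAPK-activated kinases, 2 were higher and 1 lower in siNTC (median 0.07). These were Rps6ka2 (RSK3, 0.74 ± 0.05, FDR = 6.8e-14), Mknk1 (MNK1, 0.61 ± 0.06, FDR = 8.02e-10) and Rps6ka5 (MSK1, -0.59 ± 0.13, FDR = 0.000201). The 3 were called in the same direction in siErk3 and siMk5. Under siErk3 in BSA, 1 gene of this list was higher at an FDR below 0.05 without reaching the fold limit, where 263 of all genes passed by the FDR alone. Rps6ka2 stood at 45.7 ± 0.584 CPM in siErk3 BSA and 39.8 ± 0.742 in siNTC BSA, and at 69.5 ± 2.43 and 66.7 ± 0.230 in PA.

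**Figure D5:**
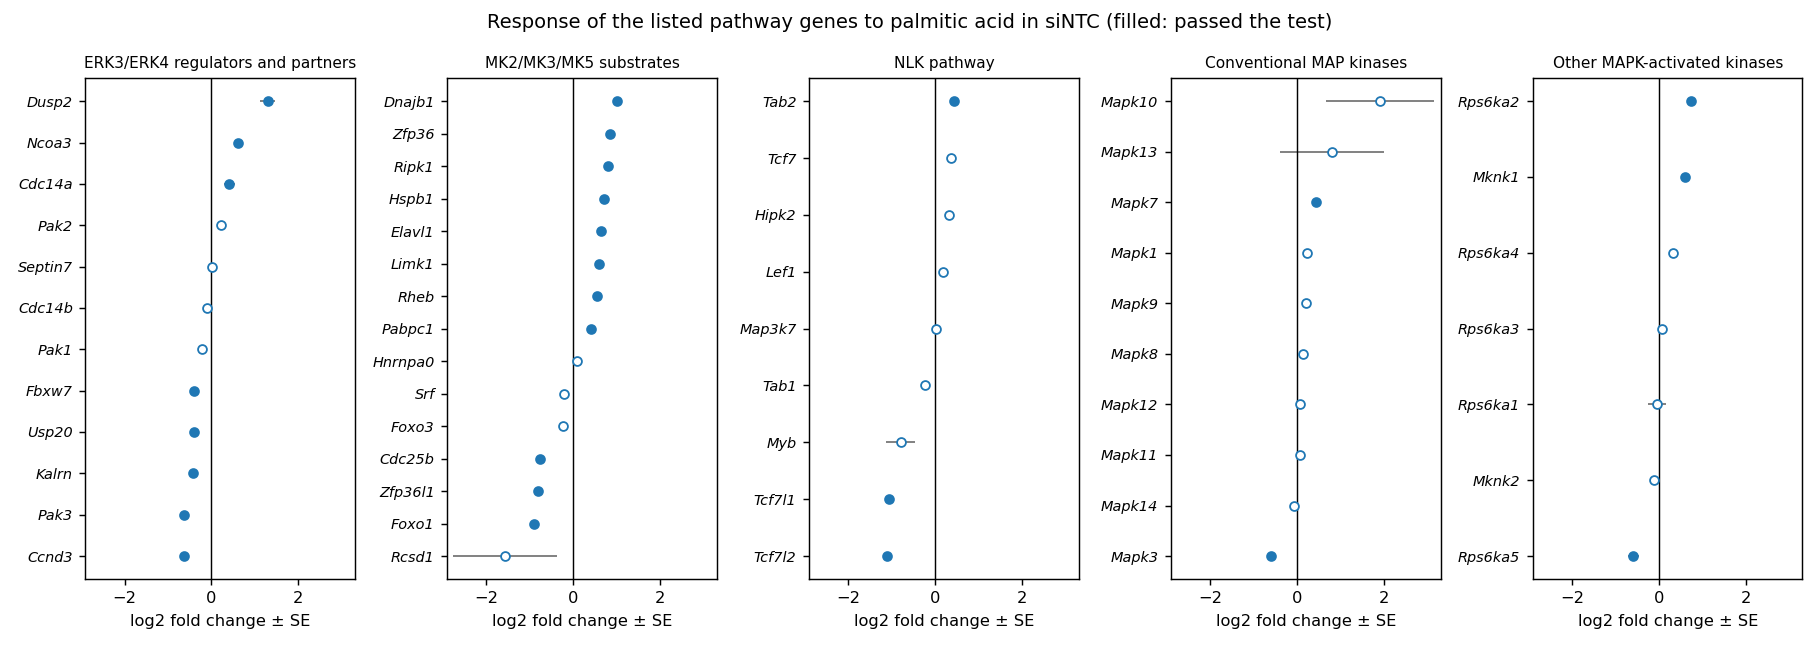
Log2 fold change (horizontal axes, edgeR, whiskers are the SE) for PA over BSA in siNTC of the 53 tested genes of the 5 lists, ordered by value within each list; filled points passed the test. Of the 53, 15 were called higher and 12 lower, from Dusp2 (1.29) to Tcf7l2 (-1.11).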

How the data were processed

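RNA was sequenced from 18 libraries (stranded, poly(A)-selected). Groups came from the sample labels. The authors deposited whole-number counts of read pairs per gene, not normalized. Per the study's methods and the submitters' processing notes, reads were trimmed with Trim Galore, aligned with STAR and left with duplicates marked, and per the file headers featureCounts 2.0.0 counted primary alignments with mapping quality of at least 3 on the reverse strand (setting 2) with the Ensembl release 105 annotation of GRCm39, although the labels name mm10. A deposited table of log2 FPKM was not used here. Symbols came from GENCODE M39. No column of per-sample values was left unmatched.

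Genes reaching 10 counts over all libraries (21772) were fitted in edgeR 4.0.16 (R 4.3.3; quasi-likelihood test, TMM scaling, 1 coefficient per group, all 18 libraries). A gene was called at a Benjamini-Hochberg FDR below 0.05 over all genes and a fold change above 1.3. Exact permutation tests, 4 in all, used log2(CPM + 0.5). Values are means ± SD over 3 libraries, fold changes ± SE; intervals of fold changes are at the 95% level. Named genes were the 7 kinases, genes overlapping their exons, up to 4 called genes of largest change per list and comparison, and the 3 genes most like Mapk6. The other genes named in the lists' text are examples. DESeq2 1.42.0, other scalings and filters, leaving out each library and a replicate block were the alternatives, and leaving out Rn18s-rs5 was added after seeing the data. The members and lists were chosen with earlier results of these data known. On simulated data for siErk3 against siNTC in BSA (21365 genes), 190 of 200 genes changed 2-fold were recovered (95%). These 200 were drawn only from better-counted genes, a set without Mapk15 and Mapkapk3. The simulated spread followed a set formula and was not estimated from these libraries. The 95% is therefore no measure of what could be detected for the weakly counted kinases. Replicate libraries differed by more than sampling noise.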

Additional observations from a re-analysis of the deposited data

How the results depend on the processing

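The calls of Mapk6 under siErk3 and its PA responses held under DESeq2, other scalings and filters, a fit of only the groups compared and each left-out library. Without TMM scaling, values near 0 changed sign: under siMk5 in BSA, Mapkapk2 -0.067, Mapk6 -0.073 and Nlk -0.075; under siMk5 in PA, Mapk6 0.02 and Nlk 0.016; and in the interaction of siMk5 and PA, Mapkapk2 0.066, Mapk6 0.094, Nlk 0.091 and Mapk4 0.031. Mapkapk2 with PA in siNTC changed sign under DESeq2 (-0.004), its size factors in edgeR (-0.005), no TMM (-0.094), filterByExpr (-0.013) and without Rn18s-rs5 (-0.006), and Mapk4 with PA in siMk5 in a fit of 2 groups (-0.004). None of these values passed a test and the cause was not tested. Mapkapk5 with PA in siMk5 lost its call under DESeq2 (0.504) and in a fit of 2 groups (0.501). Mapkapk5 under siMk5 over both media was called without TMM (-0.577) and with no filter (-0.561), making 1 called kinase in each. With the FDR alone, Mapk6 in siErk3 PA against siNTC BSA was called (-0.141). Of the 53 listed pathway genes, those called by the FDR alone were 2 under siErk3 in BSA, 1 in PA and 1 under siMk5 in BSA. They were 41 with PA in siErk3, 41 and 40 in siErk3 PA and siMk5 PA against siNTC BSA, and 2 under siErk3 over both media. Of all 21772 genes, this rule called, in the same order, 263, 186, 18, 10266, 10267, 9663 and 445, so these list counts are not to be read against the shares given above with the fold limit.

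When 1 library at a time was left out, the values of named results that changed a call or sign ranged as follows. Mapkapk5 with PA ranged from 0.208 to 0.55 in siNTC, 0.437 to 0.662 in siErk3 and 0.314 to 0.706 in siMk5, and under siMk5 over both media from -0.641 to -0.444, called without siMk5 BSA library 2 (-0.641, FDR = 0.0448) or siNTC PA library 1 (-0.624, FDR = 0.0247). The kinases called with PA in siErk3 numbered 3 to 5, and 3 without PA library 3. Mapk15 with PA was called in siErk3 without PA library 1 (-1.37, FDR = 0.0329) and in siMk5 without BSA library 1 (1.51, FDR = 0.0289). Signs changed for uncalled values of Mapk15 under siErk3 (-0.525 to 0.017 in BSA, -0.989 to 0.058 in PA) and in its interaction (-0.719 to 0.319), of Mapkapk5 under siErk3 in PA (-0.229 to 0.099) and in the interactions with siErk3 (-0.017 to 0.319) and siMk5 (-0.082 to 0.312), of Nlk under siErk3 in PA (-0.17 to 0.016) and under siMk5 (-0.008 to 0.077 in BSA, -0.062 to 0.011 in PA), of Mapk6 under siMk5 in PA (-0.071 to 0.016), of Mapkapk2 with PA in siNTC (-0.026 to 0.013), and of Mapk4 with PA in siMk5 (-0.081 to 0.228) and in the interaction with siMk5 (-0.234 to 0.097).

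Same-numbered libraries correlated above 0.1 in 2 of 21 pairs (-0.609 to 0.228). This gave no sign of pairing by number, though a check with 3 libraries per group cannot exclude it. The most negative values were in PA, for libraries 1 and 3 of siErk3 (-0.609 and -0.6) and siMk5 (-0.506 and -0.414) against siNTC. Their cause was not tested. With the replicate block, 171, 123, 18 and 121 genes were called under siErk3 in BSA and PA and siMk5 in BSA and PA, against 171, 121, 14 and 119 without it, and no call of a kinase changed. Over all genes, the counts called moved by over 1.5 times as follows. With the FDR alone they were 263 against 171 for siErk3 in BSA, 186 against 121 in PA, 445 against 200 over both media, 103 against 46 for siMk5 over both media, and 9663 against 6441 for siMk5 PA over siNTC BSA. With no filter they were 208 for siErk3 in PA, 61 against 14 for siMk5 in BSA, 93 for siMk5 over both media, and 72 against 8 and 130 against 46 in the interactions of siErk3 and siMk5. Without TMM they were 90 for siMk5 in BSA and 189 in its interaction. In a fit of only the groups compared they were 71 for siErk3 in PA and 4 in its interaction, which also had 4 with DESeq2 size factors, 2 without Rn18s-rs5 and 0 with filterByExpr in edgeR (958 genes at an unadjusted p below 0.05, and 11 called by DESeq2). Leaving out 1 library gave 113 to 144 and 85 to 168 for siErk3 in BSA and PA, 6 to 25 for siMk5 in BSA, 0 to 24 and 22 to 67 in the interactions, and 25 to 54 for siMk5 over both media. Depth limits Mapk15 and Mapkapk3 (from 4 counts per library) and Mapkapk5 (from 27).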
